A study of Mus musculus with 20 samples.

Results

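The 35 genes described here encode the enzymes and carriers of glycolysis and of the pentose phosphate pathway. They comprise 2 glucose carriers, the hexokinases, every glycolytic step down to lactate dehydrogenase, 2 lactate carriers and both branches of the pentose phosphate pathway. They were taken by gene name. All 35 were measured well enough to be tested, out of 25618 gene names tested on the array, and 81 of their 86 probes were tested. Each gene is read by its brightest tested probe, which was well above background on all 20 arrays for every one of the 35.

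RNA of visceral adipose tissue (VAT) of male F3 C57bl/6J mice was measured with 1 Agilent array per mouse. The 6 Ref mice came from the control lineage, whose breeding diet held oleic-rich sunflower oil, and they were fed a low-fat standard diet. The 6 HFoleic mice came from that same lineage and were fed a high-fat, high-sucrose diet. The 8 HFepa mice were fed the same obesogenic diet but came from a lineage whose breeding diet held fish oil rich in EPA, an omega 3 fatty acid. HFepa and Ref thus differ in both diet and lineage, and those parts of the difference cannot be told apart, since no EPA-lineage mice on the low-fat diet were measured here. Adipocyte markers were well above background in every group. The mean log2 intensity of 8 such markers (Adipoq, Plin1, Cidec and others) was 16.07 to 16.28 in Ref mice, 15.81 to 16.22 in HFoleic mice and 15.88 to 16.24 in HFepa mice. This mean covers opposite changes. At an adjusted p below 0.05 in limma, 1 of the 8 was higher and 3 were lower in HFoleic than in Ref mice (50%, against 31.9% of all genes). Their log2 differences, HFoleic minus Ref, ran from -1.18 to 1.13 over the 8.

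Glycolysis splits glucose into pyruvate, which lactate dehydrogenase can turn into lactate. The pentose phosphate pathway branches off at glucose 6-phosphate, its oxidative branch yielding the NADPH used for fatty acid synthesis and for the oxidative burst of phagocytes. Many steps have several isoenzymes, each encoded by its own gene and typical of other cell types, and fat cells also use glycolysis to make the glycerol phosphate of triglycerides.

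The arrays lay on 3 slides, each holding all 3 groups, and the share of spots well above background was 66.06% on the dimmest array and 71.88% on the brightest. In 4 arrays (Ref mice 3 and 6, HFoleic mouse 5 and HFepa mouse 4) transcripts of testis germ cells were present, with a mean log2 intensity of Prm1, Prm2 and Tnp1 of 8.75 or more against at most 6.77 in the other arrays. The results below are also given without these 4 arrays where that matters. The mean log2 intensity of 3 epididymis markers (Adam7, Lcn9 and Rnase10) was highest in HFepa mouse 2, at 9.04, then in Ref mice 3 and 6, at 8.73 and 7.97. HFepa mouse 2 stays in when the 4 arrays are left out. The values are from whole tissue, in which fewer cells of a type and less RNA per cell cannot be told apart.

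In HFoleic vs. Ref, 13 of the 35 genes (37.1%) were differentially expressed at an adjusted p below 0.05, against 31.9% of all genes tested. A log2 difference is the mean of the first group named minus that of the other, and SE is its standard error. Hk3 and Pfkfb4 had the largest rises, 7.12-fold and 3.31-fold, and Slc2a3 and Eno3 the largest falls. The other genes that rose, by 1.18-fold to 1.77-fold, were Tpi1, Pgd, Aldoa, Pgk1, Eno1, G6pdx, Pgam1 and Pfkp, and Tkt was the other one that fell. The 10 genes that rose are 28.6% of the members, against 15.2% of all genes, and the 3 that fell are 8.57%, against 16.7%. The median log2 difference was 0.08 over the 35 genes and -0.04 over all genes. For Hk3, Pfkfb4, Slc2a3 and Eno3 the HFoleic and Ref mice did not overlap, which held for 14% of all genes tested.

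Without the 4 arrays holding testis transcripts, 5 of the 35 genes were differentially expressed in this comparison (Hk3, Pfkfb4, Slc2a3, Eno3 and Tkt), and the 8 smaller rises, of Tpi1, Pgd, Aldoa, Pgk1, Eno1, G6pdx, Pgam1 and Pfkp, no longer passed the test. Over all probes, 17.1% passed without these arrays, against 30.8% with them. Leaving out single mice gave between 9 genes (without Ref mouse 3) and 17 genes (without Ref mouse 7), where 27.3% and 31.7% of all probes passed.

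**Figure D1:**
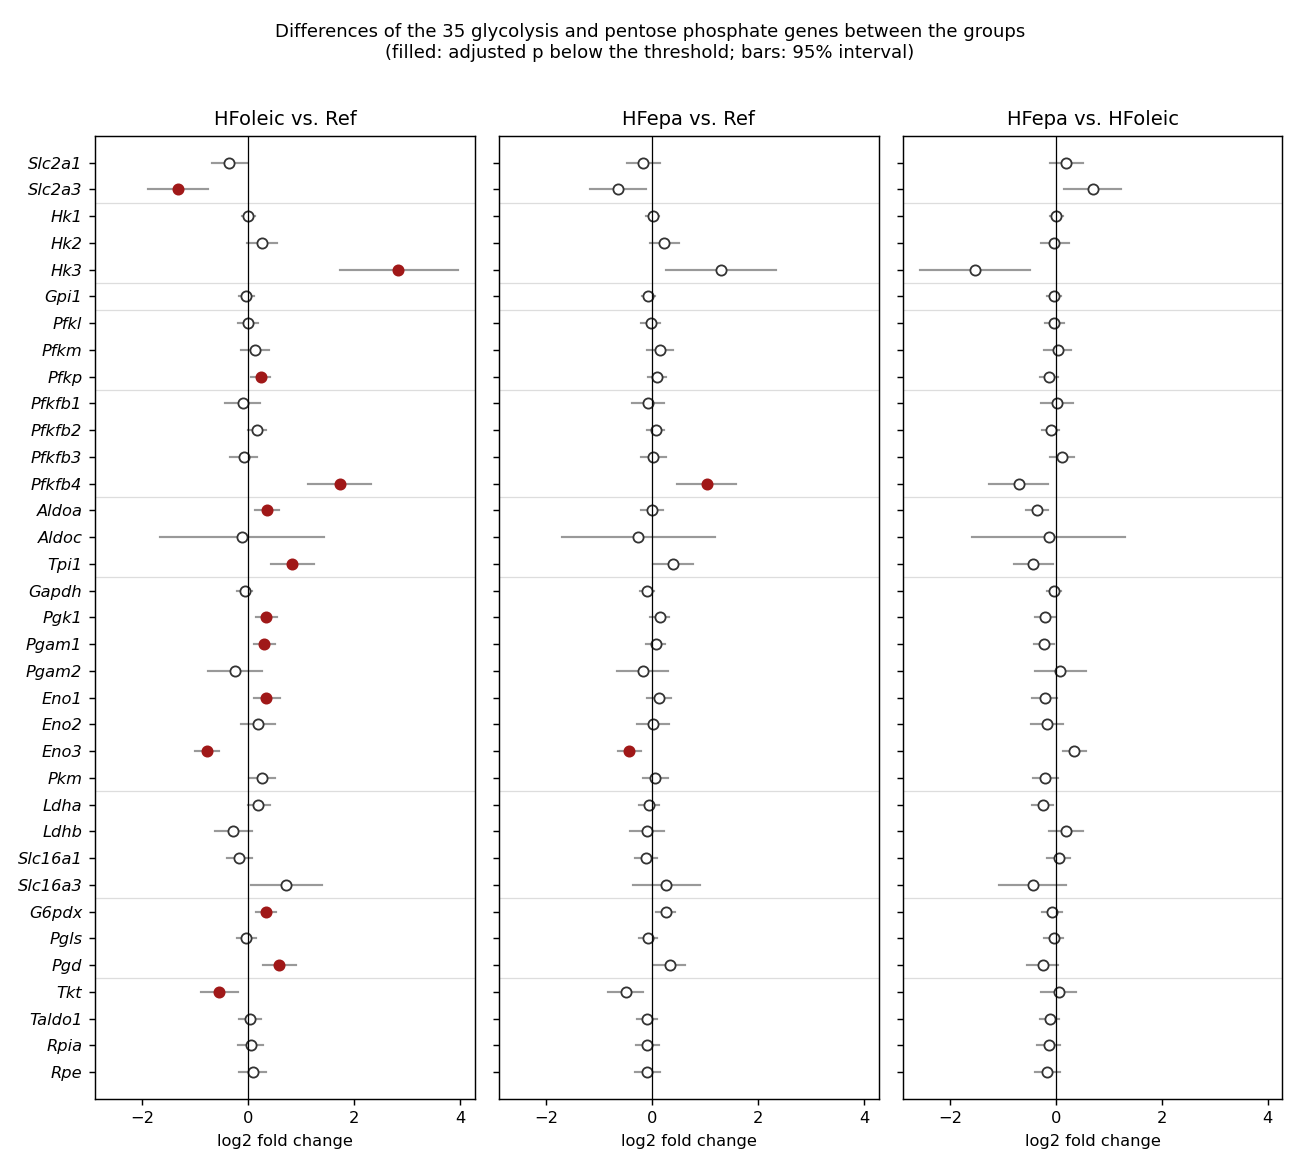
Log2 difference (x axis) of the 35 genes (rows, in order of pathway) in each of the 3 comparisons, from left to right HFoleic and HFepa against Ref and HFepa against HFoleic. Filled points passed an adjusted p of 0.05 and bars are 95% intervals of the limma fit. Hk3 at 2.83 and Pfkfb4 at 1.73 stand farthest to the right and Slc2a3 at -1.33 farthest to the left in HFoleic vs. Ref, and no point is filled in HFepa vs. HFoleic.

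Of the genes whose HFoleic and Ref mice did not overlap, 3 have an entry among the RefSeq promoters (GRCm38.p6), and Slc2a3 does not. They are shown because hypoxia-inducible factors and E-box factors, which bind short motifs, are known to control glycolytic genes. Each runs from 250 bases before to 50 bases after the start of the gene, 5′ to 3′ on the strand of the gene. Capitals mark matches on either strand to ACGTG or GCGTG, the core of the hypoxia response element. ACGTG is also part of the E-box CACGTG. The Hk3 promoter is at chr13:55021336-55021635 (minus strand), that of Pfkfb4 at chr9:108991652-108991951 (plus strand) and that of Eno3 at chr11:70656926-70657225 (plus strand).
Hk3: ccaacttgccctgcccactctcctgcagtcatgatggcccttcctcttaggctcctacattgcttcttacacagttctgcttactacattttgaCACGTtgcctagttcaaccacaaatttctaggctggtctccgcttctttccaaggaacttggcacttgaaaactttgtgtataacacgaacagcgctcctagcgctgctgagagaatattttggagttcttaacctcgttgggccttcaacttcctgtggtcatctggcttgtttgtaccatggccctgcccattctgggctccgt
Pfkfb4: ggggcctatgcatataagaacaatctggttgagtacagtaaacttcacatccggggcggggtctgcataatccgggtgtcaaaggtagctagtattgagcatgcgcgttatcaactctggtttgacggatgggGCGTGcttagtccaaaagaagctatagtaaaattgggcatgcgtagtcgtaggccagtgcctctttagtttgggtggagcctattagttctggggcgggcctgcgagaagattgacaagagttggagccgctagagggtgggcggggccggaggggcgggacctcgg
Eno3: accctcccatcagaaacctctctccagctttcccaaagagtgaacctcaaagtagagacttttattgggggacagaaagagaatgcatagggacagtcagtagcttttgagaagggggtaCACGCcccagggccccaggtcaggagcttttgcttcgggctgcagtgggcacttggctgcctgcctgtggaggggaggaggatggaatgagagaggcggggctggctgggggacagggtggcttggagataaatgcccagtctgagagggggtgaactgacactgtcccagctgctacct
Each holds 1 match, which begins 156 bases before the start in Hk3, 117 in Pfkfb4 and 130 in Eno3. Hk3 and Pfkfb4 rose and Eno3 fell. On the array, Hk3 was read at chr13:55107377-55107436, Pfkfb4 at chr9:108934652-108934711, Eno3 at chr11:70475953-70476012 and Slc2a3 at chr6:122678075-122678134, which are mm9 positions from the files and not to be set against those of GRCm38.p6. Among all 32851 promoters, 43.8% hold a match, with a median G and C content of 52.7%. Of the 52 promoters of 34 members, 75% hold one, with a median G and C content of 59.5%. The shares were 80% of 15 promoters for members that rose, 71.4% of 35 for members that gave no call and 100% of 2 for members that fell. CACGTG is in 7.15% of all promoters and in 5 of the 52, all 5 of members that gave no call. A match is a string of letters and was not tested as a binding site.

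Glucose enters cells through facilitative carriers. Slc2a3 (GLUT3), a carrier of high affinity known from neurons and white blood cells, had log2 intensities of 9.13, 9.43 and 9.78 in Ref mice (lowest, median and highest mouse), 7.61, 7.85 and 8.87 in HFoleic mice and 7.76, 9.06 and 9.23 in HFepa mice. All HFoleic mice were below all Ref mice, and the HFepa group held 2 low mice, mouse 1 at 7.76 and mouse 6 at 8.03, with the others at 8.88 or more. Slc2a3 fell by 1.33 on the log2 scale in HFoleic vs. Ref (SE 0.27, adjusted p = 0.00152). Slc2a1 (GLUT1), the widely expressed basal carrier, was at 10.37, 11.06 and 11.56 in Ref mice and at 10.46, 10.69 and 10.86 in HFoleic mice, with overlap, and at 10.48, 10.86 and 11.38 in HFepa mice. Its log2 difference was -0.36 (adjusted p = 0.0995), and it passed the test without Ref mouse 7.

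Hexokinases trap glucose in the cell as glucose 6-phosphate. Hk1, the housekeeping form, was at 16.00 to 16.10 (median 16.06) in Ref mice, 15.86 to 16.16 (16.06) in HFoleic mice and 15.89 to 16.19 (16.08) in HFepa mice, with a log2 difference in HFoleic vs. Ref of 0.00 and a 95% interval of -0.13 to 0.13. A much dimmer Hk1 probe, with a mean log2 intensity of only 5.95 over all arrays, was higher in HFoleic (0.21, adjusted p = 0.0429). Hk2, the insulin-regulated form of muscle and fat, ran from 10.56 over a median of 10.99 to 11.60 in Ref mice and from 11.11 over 11.29 to 11.38 in HFoleic mice, with 11, 11.20 and 11.55 in HFepa mice. Its log2 difference was 0.26 (adjusted p = 0.161). Hk3, a form found mainly in myeloid cells, was at 9.05, 9.50 and 9.85 in Ref mice, 11.09, 12.44 and 13.05 in HFoleic mice and 9.57, 10.06 and 13.32 in HFepa mice. Every HFoleic mouse was thus above every Ref mouse, whereas 6 of the 8 HFepa mice were between 9.57 and 10.75 and mice 1 and 6 were at 13.32 and 12.48. The log2 difference of Hk3 in HFoleic vs. Ref was 2.83 (SE 0.53, adjusted p = 0.001).

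Hk3 moved with the macrophage markers. In HFoleic vs. Ref 6 of 8 general macrophage markers and 7 of 7 markers of lipid-associated macrophages (Trem2, Gpnmb, Spp1, Itgax and others) rose, and the mean log2 intensity of the latter list had a median of 9.73 in Ref mice, 13.20 in HFoleic mice (11.87 to 13.68) and 10.95 in HFepa mice (9.71 to 14.09). HFepa mice 1 and 6 had the highest values of this list in their group, 14.09 and 13.26, and the other HFepa mice were at 11.47 or less. In the HFoleic group, mouse 1 was lowest both for the list, at 11.87, and for Hk3, at 11.09. Slc2a3 ran the other way, its lowest values being in HFoleic mice 4, 5, 6 and 8 and HFepa mice 1 and 6. The part of macrophage content in these differences was not tested.

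**Figure D2:**
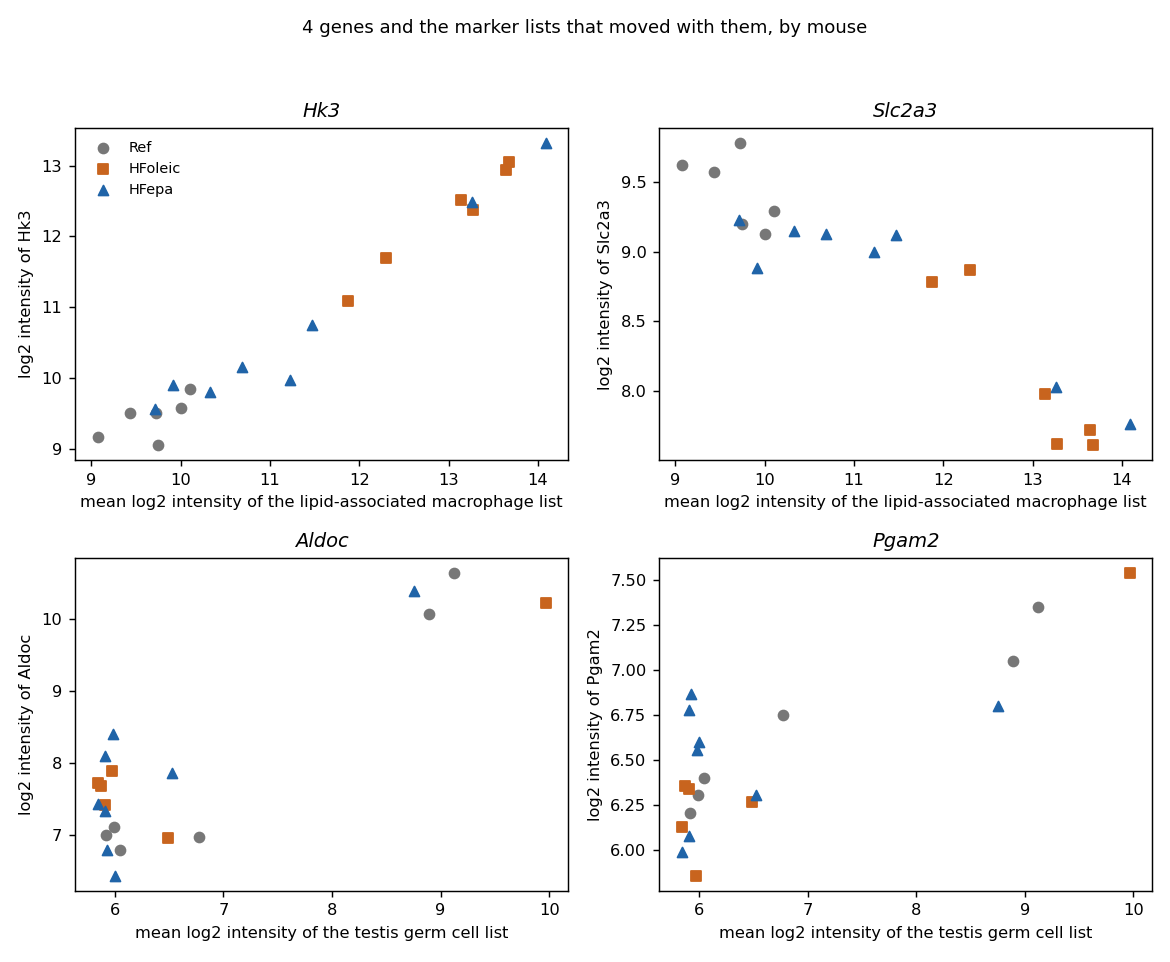
Log2 intensity of Hk3 and Slc2a3 against the mean log2 intensity of the lipid-associated macrophage list, and of Aldoc and Pgam2 against that of the testis germ cell list, with 1 point per mouse and symbols for the Ref, HFoleic and HFepa groups. Hk3 was highest, at 13.32, in the mouse with the highest macrophage list, at 14.09, and the 4 mice with a germ cell list of 8.75 or more had the highest Aldoc.

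Glucose 6-phosphate is isomerised by Gpi1, which had a log2 difference of -0.04 in HFoleic vs. Ref (adjusted p = 0.719). Phosphofructokinase-1 then commits the sugar to glycolysis and is built from liver (Pfkl), muscle (Pfkm) and platelet (Pfkp) subunits. Pfkp was at 11.40, 11.60 and 11.76 in Ref mice and at 11.56, 11.84 and 11.98 in HFoleic mice, with overlap and with 11.47, 11.71 and 11.94 in HFepa mice, and its log2 difference was 0.23 (adjusted p = 0.0482). Of 4 other tested Pfkp probes, 2 were lower in HFoleic, by log2 differences of -0.39 and -0.34 (adjusted p = 0.0128 and 0.0342), and 2 gave no call, at 0.15 and -0.07. The direction reversed when all probes were averaged. Pfkp also missed the threshold with the slide as a block (adjusted p = 0.0681), with the processed signal, with normexp correction, without a filter on dim probes, with only the groups compared and when any 1 of Ref mice 3 to 6, HFoleic mice 4, 5, 6 and 8 or HFepa mice 1, 2, 6, 7 and 8 was left out. Pfkl was at 10, 10.26 and 10.49 in Ref mice, 10.09, 10.24 and 10.51 in HFoleic mice and 10.05, 10.20 and 10.42 in HFepa mice. Pfkm was at 10.31, 10.48 and 10.72 in Ref mice, 10.50, 10.63 and 10.73 in HFoleic mice and 9.96, 10.72 and 10.93 in HFepa mice. Both overlapped between all groups and had log2 differences of 0.00 and 0.12 in HFoleic vs. Ref at their brightest probes, and a dimmer Pfkl probe was lower in HFoleic (-0.56, adjusted p = 0.00152).

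The PFKFB enzymes make and break fructose 2,6-bisphosphate, the main activator of phosphofructokinase-1. Pfkfb4, an isoform of testis that is also induced by hypoxia, was at 9.56, 10.06 and 11.16 in Ref mice, 11.20, 12.01 and 12.36 in HFoleic mice and 10.05, 11.18 and 12 in HFepa mice. The lowest HFoleic mouse was just above the highest Ref mouse, and the HFepa mice spanned the gap. Of the 4 mice with testis transcripts, Ref mice 3 and 6 were at 9.84 and 9.91, HFoleic mouse 5 at 12.13 and HFepa mouse 4 at 11.41. Pfkfb4 rose by a log2 difference of 1.73 in HFoleic vs. Ref (SE 0.28, adjusted p = 4.83e-04). For HFepa vs. Ref the log2 difference was 1.03 (SE 0.27, adjusted p = 0.0468). The other isoforms overlapped between all groups. Pfkfb3, the isoform with the strongest kinase activity, was at 15.17, 15.49 and 15.85 in Ref mice, 15.21, 15.46 and 15.58 in HFoleic mice and 15.26, 15.49 and 15.89 in HFepa mice, with a log2 difference of -0.09 and a 95% interval of -0.34 to 0.16. Pfkfb1, the isoform of liver and muscle, was at 12.30, 12.65 and 13.04 in Ref mice, 12.21, 12.46 and 12.98 in HFoleic mice and 12.22, 12.53 and 13.09 in HFepa mice, with a log2 difference of -0.11. Pfkfb2, that of heart, was at 9.68, 9.88 and 10 in Ref mice, 9.90, 10.06 and 10.13 in HFoleic mice and 9.69, 9.91 and 10.22 in HFepa mice, with a log2 difference of 0.17.

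Aldolase splits the 6-carbon sugar into triose phosphates, which Tpi1 interconverts. Aldoa, the common aldolase, was at 16.95, 17.26 and 17.60 in Ref mice, 17.31, 17.70 and 17.85 in HFoleic mice and 16.97, 17.34 and 17.41 in HFepa mice. Its log2 difference in HFoleic vs. Ref was 0.35 (SE 0.11, adjusted p = 0.0185), was 0.06 with the processed signal and 0.11 with median centring, and missed the threshold in both and without Ref mouse 3. Tpi1 was at 13.93, 14.37 and 15.13 in Ref mice, 14.83, 15.30 and 15.50 in HFoleic mice and 13.98, 14.95 and 15.28 in HFepa mice. The groups overlapped through Ref mouse 7 at 15.13 and HFoleic mouse 1 at 14.83 only. The log2 difference of Tpi1 in HFoleic vs. Ref was 0.82 (SE 0.19, adjusted p = 0.00367). A dimmer Tpi1 probe, with a mean log2 intensity of only 6.16 over all arrays, was at 0.09 and not called.

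Aldoc, the aldolase of brain, ran from 6.79 over a median of 7.05 to 10.63 in Ref mice, from 6.95 over 7.70 to 10.22 in HFoleic mice and from 6.43 over 7.63 to 10.39 in HFepa mice. Its 4 highest values, 10.06, 10.63, 10.22 and 10.39, were those of the 4 mice whose arrays held testis transcripts, and all other mice were at 8.40 or less. Pgam2, the muscle phosphoglycerate mutase, was highest at 7.54 in HFoleic mouse 5, 7.35 in Ref mouse 6 and 7.05 in Ref mouse 3, which are among the same 4 mice, and HFepa mouse 4 was at 6.80. Its medians were 6.58 in Ref mice, 6.31 in HFoleic mice and 6.58 in HFepa mice, with lowest mice at 6.21, 5.86 and 5.99 and the highest HFepa mouse at 6.87. Neither Aldoc nor Pgam2 passed the test, with log2 differences in HFoleic vs. Ref of -0.12 and -0.26. The part of testis RNA in these values was not tested.

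In lower glycolysis, 3 of 8 genes rose and 1 fell in HFoleic vs. Ref. Pgk1, the first enzyme of the pathway that yields ATP, was at 14.65, 14.91 and 15.33 in Ref mice, 15.23, 15.29 and 15.50 in HFoleic mice and 14.86, 15.13 and 15.29 in HFepa mice, and its log2 difference was 0.34 (adjusted p = 0.00874). Pgam1, the common phosphoglycerate mutase, went from 13.40, 13.70 and 14.03 to 13.92, 14.06 and 14.14, a log2 difference of 0.30 (adjusted p = 0.0235), with 13.57, 13.87 and 13.94 in HFepa mice. Ref mouse 7, at 15.33 for Pgk1, and Ref mice 5 and 7, at 14.03 and 13.97 for Pgam1, reached into the HFoleic range. Gapdh, often used as a reference gene, was at 17.04 to 17.47 in Ref mice, 17.09 to 17.32 in HFoleic mice and 17.02 to 17.30 in HFepa mice. Its log2 difference in HFoleic vs. Ref was -0.07 (adjusted p = 0.49) and became -0.27 on the processed signal (adjusted p = 0.00514). Pgam1 missed the threshold without Ref mouse 3, Ref mouse 6 or HFoleic mouse 4, and Pgk1 with the mean of its probes (0.16, adjusted p = 0.104). The dimmer Pgk1 probe in that mean, with a mean log2 intensity of only 6.18 over all arrays, was at -0.02.

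Enolase makes phosphoenolpyruvate, and of its 3 isoforms Eno1 rose and Eno3 fell in HFoleic vs. Ref. Eno1, the common form, was at 14.62, 14.79 and 15.32 in Ref mice, 14.93, 15.28 and 15.33 in HFoleic mice and 14.60, 15.01 and 15.27 in HFepa mice. The log2 difference in HFoleic vs. Ref was 0.34 (adjusted p = 0.0329), and it missed the threshold on the processed signal, with the mean of all Eno1 probes and when any 1 of Ref mice 2 to 5 or HFoleic mice 4, 5, 6 and 8 was left out. Eno1b, a near-identical copy that a probe of Eno1 may also read, had a log2 difference of 0.32 (adjusted p = 0.0354), so that the value of Eno1 is uncertain, and a dimmer Eno1 probe was at -0.11 and not called. Eno3, the muscle form, was at 10.68, 10.86 and 11.06 in Ref mice, 9.86, 10.04 and 10.54 in HFoleic mice and 10.14, 10.49 and 10.63 in HFepa mice. Every mouse on the obesogenic diet was below every Ref mouse, and Eno3 fell by 0.78 on the log2 scale in HFoleic vs. Ref (SE 0.11, adjusted p = 2.95e-04). The decrease in HFepa vs. Ref was tested separately, and there Eno3 fell by 0.43 (SE 0.10, adjusted p = 0.0336). The mean log2 intensity of 6 skeletal muscle markers was 8.21 to 8.59 in Ref mice, 8.06 to 8.72 in HFoleic mice and 8.08 to 8.60 in HFepa mice. Eno2, the neuronal form, was at 7.92, 8.09 and 8.55 in Ref mice and 8.05, 8.33 and 8.58 in HFoleic mice (7.84, 8.05 and 8.93 in HFepa mice), with a log2 difference of 0.18 (adjusted p = 0.398).

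Pkm encodes the pyruvate kinase of most tissues, with 2 splice forms known to differ in activity. Its brightest probe was at 13.90, 14.06 and 14.50 in Ref mice, 14.13, 14.41 and 14.59 in HFoleic mice and 13.91, 14.16 and 14.64 in HFepa mice, with a log2 difference of 0.26 in HFoleic vs. Ref (adjusted p = 0.108). Another probe gave a call and is shown because it is the one that differed. It is annotated to chr9:59518501-59519397 on mm9, plus strand, a span of 897 bases for a probe of 60 bases, so that it joins separate stretches of the gene. It reads 5′ to 3′ as follows.
Pkm probe: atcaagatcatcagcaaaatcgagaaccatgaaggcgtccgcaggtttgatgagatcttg
This probe was at 8.78, 8.92 and 9.77 in Ref mice, 9.48, 9.64 and 9.78 in HFoleic mice and 8.73, 9.17 and 9.47 in HFepa mice. The log2 difference was 0.56 in HFoleic vs. Ref (SE 0.15, adjusted p = 0.009) and 0.08 in HFepa vs. Ref (adjusted p = 0.807), and the Ref and HFoleic groups overlapped. Whether it can tell the splice forms apart was not tested, and its call is not a measure of splice form.

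Lactate dehydrogenase and the lactate carriers gave no call in HFoleic vs. Ref at the main setting. Ldha, the subunit that favours lactate, was at 16.39, 16.78 and 17.21 in Ref mice, 16.88, 16.96 and 17.14 in HFoleic mice and 16.57, 16.74 and 16.86 in HFepa mice. The log2 difference in HFoleic vs. Ref was 0.19 (95% interval -0.01 to 0.40), and it passed with the slide as a block (0.23, adjusted p = 0.0465) and without Ref mouse 7 (0.27, adjusted p = 0.0176). All HFepa mice were below all HFoleic mice, and HFepa vs. HFoleic gave -0.25 (95% interval -0.45 to -0.06, adjusted p = 0.145). Ldhb, the subunit that favours pyruvate, had log2 differences of -0.29 in HFoleic vs. Ref and 0.19 in HFepa vs. HFoleic. Slc16a3 (MCT4), the carrier that exports lactate, was at 7.67 to 9.01 in Ref mice and 8.01 to 9.50 in HFoleic mice, a log2 difference of 0.71 (adjusted p = 0.102) that passed the test without HFoleic mouse 1 (adjusted p = 0.0392). Slc16a1 (MCT1) had a log2 difference of -0.17.

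**Figure D3:**
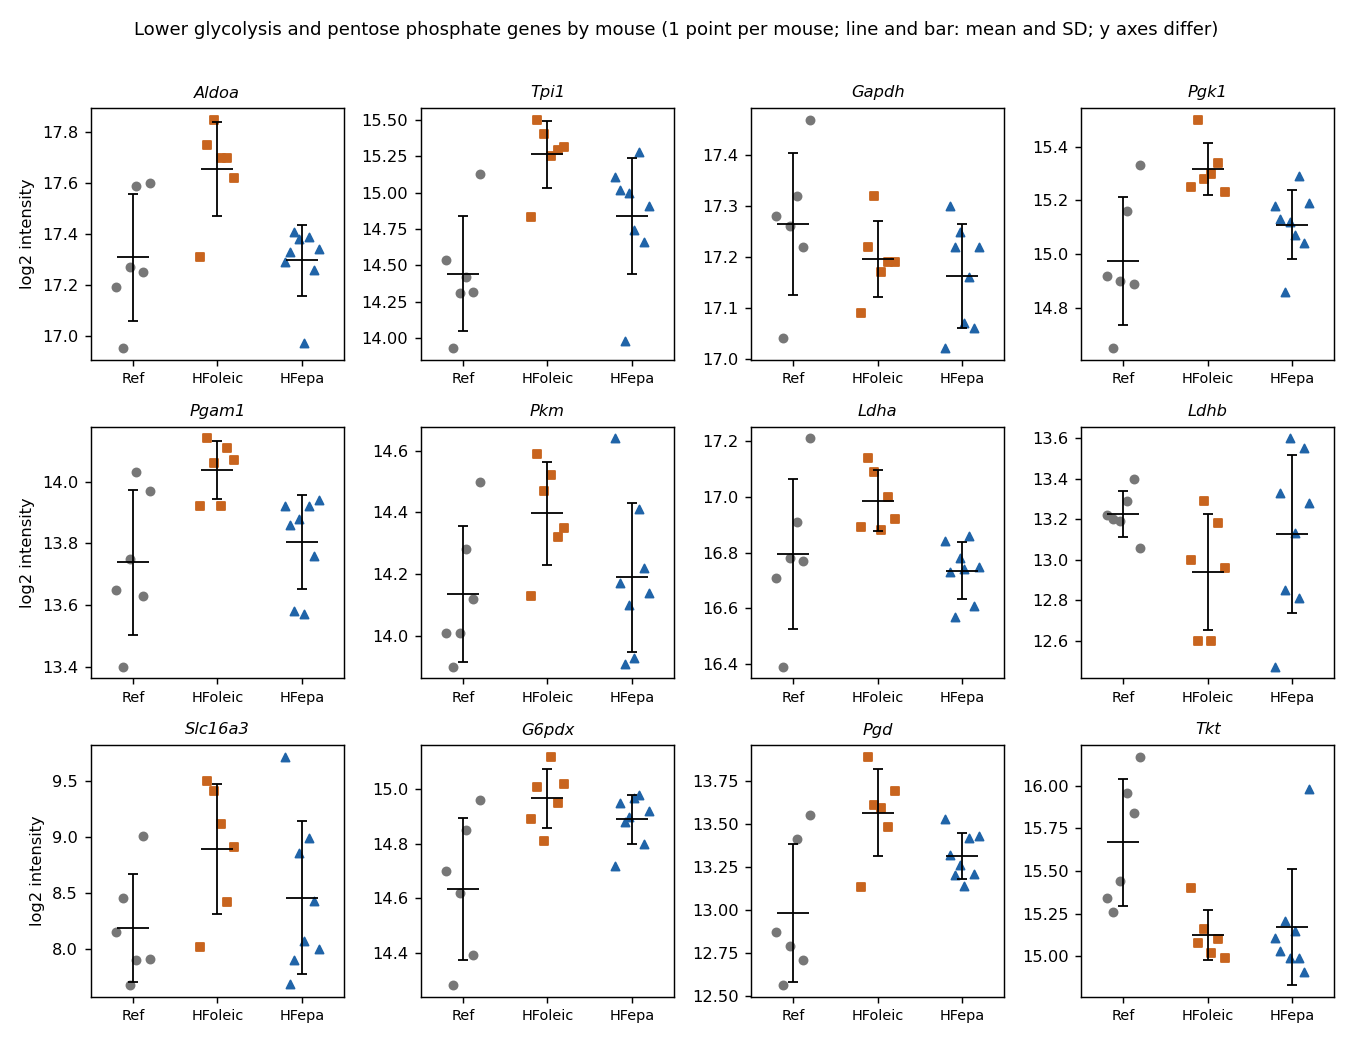
Log2 intensity (y axis, scaled for each gene) by group for 12 genes of lower glycolysis, lactate and the pentose phosphate pathway. Points are mice, lines are means and bars are SD. Ref mouse 7, the last point of the Ref group, is the highest Ref mouse for Tpi1 at 15.13 and Ldha at 17.21, and HFepa mouse 8, the last point of that group, stands apart for Tkt at 15.98.

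In the pentose phosphate pathway 2 of 3 genes of the oxidative branch rose and 1 of 4 genes of the non-oxidative branch fell in HFoleic vs. Ref. In the oxidative branch, G6pdx, its first and rate-limiting enzyme, was at 14.28, 14.66 and 14.96 in Ref mice, 14.81, 14.98 and 15.12 in HFoleic mice and 14.72, 14.91 and 14.98 in HFepa mice. Its log2 difference in HFoleic vs. Ref was 0.33 (SE 0.09, adjusted p = 0.0114). Pgd, which yields the second NADPH, was at 12.56, 12.83 and 13.55 in Ref mice, 13.13, 13.60 and 13.89 in HFoleic mice and 13.14, 13.29 and 13.53 in HFepa mice. It had a log2 difference of 0.58 (SE 0.15, adjusted p = 0.0061), while Pgls, the lactonase between them, was at -0.04. Dimmer Pgd probes, with mean log2 intensities of only 5.51 and 6.15 over all arrays, were at 0.00 and 0.07 and not called. In the non-oxidative branch, Tkt, the transketolase, was at 15.26, 15.64 and 16.17 in Ref mice, 14.99, 15.09 and 15.40 in HFoleic mice and 14.91, 15.07 and 15.98 in HFepa mice. Tkt fell by 0.55 on the log2 scale in HFoleic vs. Ref (SE 0.17, adjusted p = 0.0186), and by 0.19 with the mean of its probes (adjusted p = 0.111). That mean includes dimmer probes at 0.02 and -0.04, whose own mean log2 intensities were only 6.18 and 5.51 over all arrays. In HFepa vs. Ref Tkt was at -0.50 (adjusted p = 0.0882), and without HFepa mouse 8, the high one, it passed the test at -0.62 (adjusted p = 0.0194). Taldo1, Rpia and Rpe, the other enzymes of that branch, had log2 differences between 0.03 and 0.08 and gave no call.

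Within isoenzyme families, the ratio of a pair of genes was compared inside each array. This cancels a shift of the array common to both genes, but not one that depends on intensity. Of 60 tests, 20 pairs in 3 comparisons, 10 passed an adjusted p of 0.05 (two-sided exact permutation test over mice, Benjamini–Hochberg adjustment over the 60). There were 7 in HFoleic vs. Ref, 3 in HFepa vs. Ref and 0 in HFepa vs. HFoleic, where 4 of 20 had an unadjusted p below 0.05 by the exact permutation test. All 10 involved Hk3, Pfkfb4 or Eno3. The log2 ratio of Hk1 to Hk3 was 6.61 ± 0.28 (SD, n = 6) in Ref mice, 3.78 ± 0.75 (SD, n = 6) in HFoleic mice and 5.32 ± 1.45 (SD, n = 8) in HFepa mice, and HFoleic vs. Ref differed by -2.83 (adjusted p = 0.026, exact permutation test). The ratio of Hk2 to Hk3 differed by -2.57 (adjusted p = 0.026, exact permutation test).

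For the PFKFB enzymes, the ratio of Pfkfb3 to Pfkfb4 was 5.35 ± 0.36 in Ref mice, 3.53 ± 0.44 in HFoleic mice and 4.35 ± 0.67 in HFepa mice (SD). It differed by -1.82 in HFoleic vs. Ref (adjusted p = 0.026, exact permutation test). HFepa mice also differed from Ref mice in this ratio (adjusted p = 0.0466, exact permutation test). The ratios of Pfkfb1 and Pfkfb2 to Pfkfb4 passed in both comparisons as well, and all these ratios share Pfkfb4. In HFepa vs. Ref their adjusted p was 0.05 when rounded and 0.0466 (exact permutation test). Of 29 alternative settings, 12 kept the ratio of Pfkfb1 to Pfkfb4 in HFepa vs. Ref. Those of Pfkfb2 and of Pfkfb3 to Pfkfb4 were each kept in 18. The ratio of Eno1 to Eno3 differed by 1.12 in HFoleic vs. Ref (adjusted p = 0.0371, exact permutation test), with 4.02 ± 0.36 in Ref mice and 5.13 ± 0.38 in HFoleic mice. The ratio of Eno2 to Eno3 differed by 0.96 (adjusted p = 0.026, exact permutation test). The count was 0 without the 4 arrays with testis transcripts, and 0 without any 1 of Ref mice 2 to 6. The smallest p that the exact test can give is 0.00216 for 6 against 6 mice. Without the 4 arrays fewer mice remain and the smallest p is larger. The count of 0 there cannot tell a lost difference from a weaker test. With HFoleic mouse 1 left out the count was 16. With the slide as a block and permutations within slides, 8 ratios passed. The ratios of Eno1 to Eno3, Pfkfb1 to Pfkfb4 and Pfkfb2 to Pfkfb4 in HFoleic vs. Ref and of Pfkfb3 to Pfkfb4 in HFepa vs. Ref then missed the threshold (adjusted p = 0.0556 for each, exact permutation test).

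**Figure D4:**
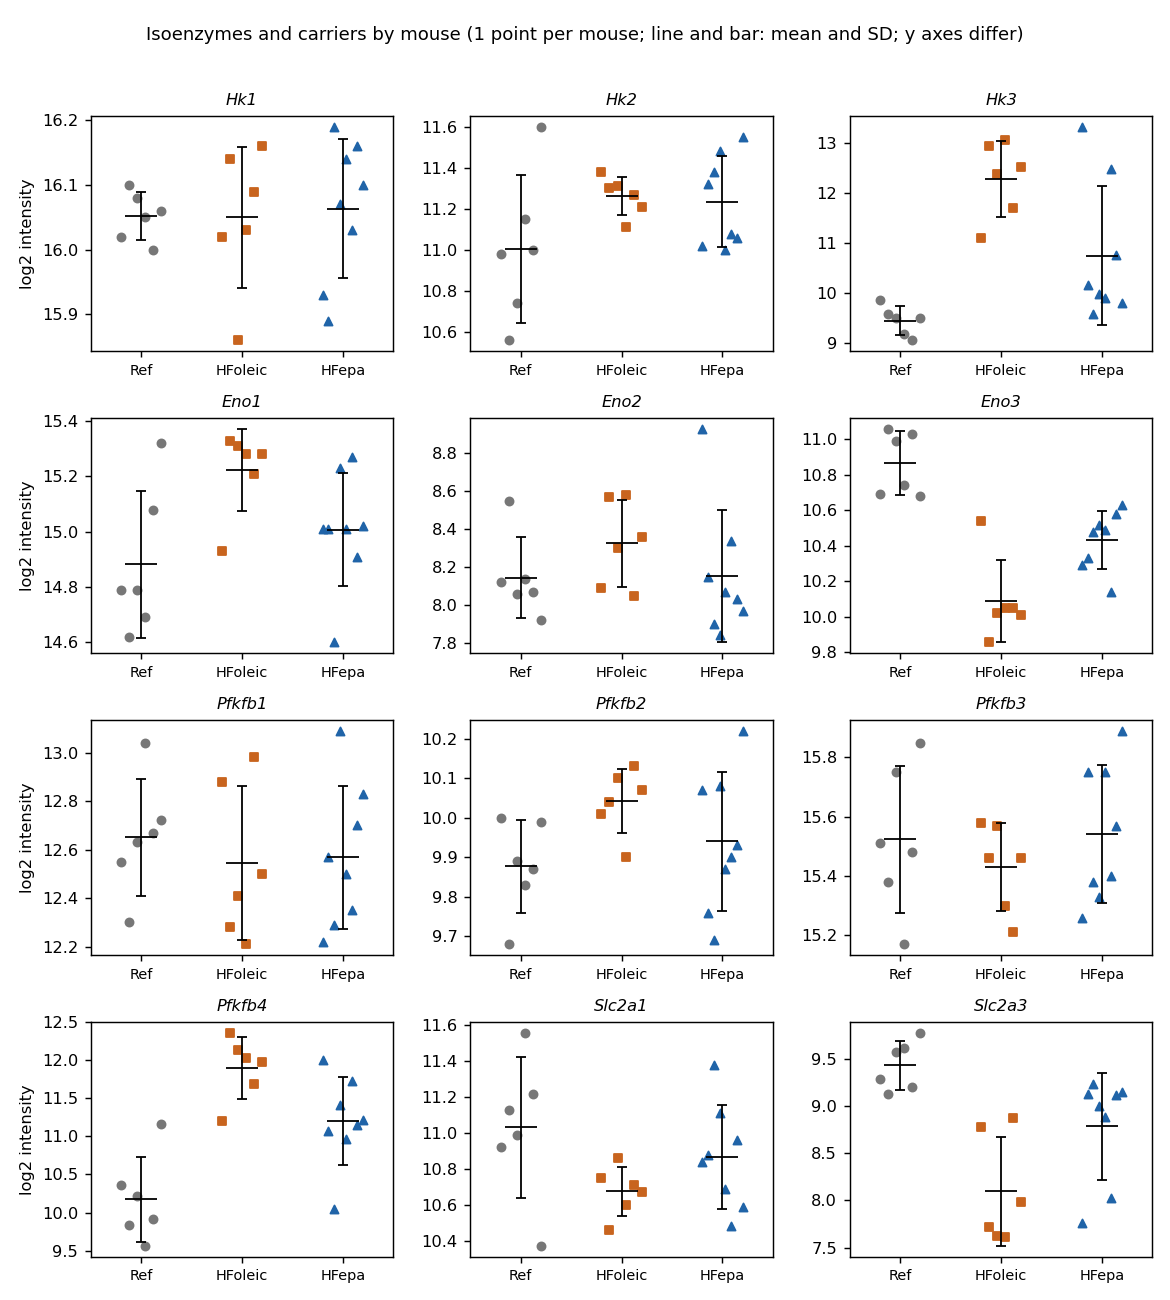
Log2 intensity (y axis, scaled for each gene) by group for the hexokinases, enolases, PFKFB enzymes and 2 glucose carriers. Points are mice, lines are means and bars are SD. Hk3, Pfkfb4, Slc2a3 and Eno3 show no overlap of the Ref and HFoleic groups, and the HFepa mice 1 and 6 lie at 13.32 and 12.48 for Hk3.

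In HFepa vs. Ref, 2 of the 35 genes (5.71%) were differentially expressed, against 2.45% of all genes tested. They are Pfkfb4, higher in HFepa, as were 1.04% of all genes, and Eno3, lower in HFepa, as were 1.41%. Eno3 was the one gene without overlap (2.86% of the members, 1.04% of all genes). Without adjustment, 8 of the 35 genes had a p below 0.05 (22.9%), against 21.5% of all genes. Hk3 had a log2 difference of 1.30 (95% interval 0.26 to 2.34, adjusted p = 0.146) and G6pdx of 0.26 (adjusted p = 0.111). Aldoa was at -0.01 and Eno1 at 0.13. Both genes missed the threshold without the 4 arrays with testis transcripts, with Pfkfb4 at 0.85 (adjusted p = 0.263) and Eno3 at -0.35 (adjusted p = 0.221). Pfkfb4 also missed the threshold without any 1 of Ref mice 2 to 6, HFoleic mice 4 to 8 or HFepa mice 1, 2 and 4 to 8. Eno3 missed it without any 1 of Ref mice 3 to 6 or HFepa mice 1 and 6. Both were lost with the replicate number as a block and with only the groups compared. Pfkfb4 was lost as well on the processed signal, with median centring, without a filter on dim probes and with the slide as a block. Of 31 alternative settings, 7 kept Pfkfb4 and 22 kept Eno3.

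In HFepa vs. HFoleic, 0 of the 35 genes passed the adjusted threshold in limma, as did 0% of all genes tested. Without adjustment 9 of the 35 genes had a p below 0.05 (25.7%), against 20.8% of all genes, and 7 of the 9 were lower in HFepa. Of the 35 log2 differences 24 were below 0 and 11 above, with a median of -0.10, whereas 53.7% of all genes were above 0, with a median of 0.01. The largest differences were those of Hk3, at -1.53 (95% interval -2.57 to -0.49, adjusted p = 0.132), Pfkfb4, at -0.70 (-1.26 to -0.15), and Slc2a3, at 0.69 (0.16 to 1.22). Aldoa was at -0.36 (-0.57 to -0.15), Tpi1 at -0.43 (-0.80 to -0.05) and Eno3 at 0.34 (0.13 to 0.56). Ldha was the one gene without overlap, which held for 0.355% of all genes tested.

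With the slide as a block, 3 of the 35 genes passed in HFepa vs. HFoleic, namely Aldoa (-0.41, adjusted p = 0.0289), Eno3 (0.39, adjusted p = 0.0379) and Ldha (-0.30, adjusted p = 0.0491). Of all probes, 3.29% passed with this block. Within slides 1, 2 and 3 Aldoa differed by -0.35, -0.38 and -0.44, Eno3 by 0.27, 0.47 and 0.49 and Ldha by -0.12, -0.36 and -0.46. The values of slide 2 rest on 1 HFoleic mouse, mouse 4. Without HFepa mouse 1, whose Hk3 was the highest of all mice, 4 genes passed, as did 7.27% of all probes. They were Hk3 (-1.90, adjusted p = 0.0272), Slc2a3 (0.84, adjusted p = 0.0362), Aldoa (-0.36, adjusted p = 0.0479) and Eno3 (0.37, adjusted p = 0.0433). Without HFoleic mouse 1, Aldoa (-0.43, adjusted p = 0.0342) and Eno3 (0.43, adjusted p = 0.0282) passed, as did 4.22% of all probes.

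The mice of a group were not alike. Of the 10 genes that rose in HFoleic vs. Ref, HFoleic mouse 4 was above the highest Ref mouse for 10 and mouse 1 for 2, with 6 to 8 for the others. The HFepa mice were above the highest Ref mouse for 1 to 4 of these 10 genes, with 4 in mouse 6 and 3 in mouse 1. For the 3 genes that fell, 5 of 6 HFoleic mice were below the lowest Ref mouse for all 3, and HFepa mice 1, 4, 5, 6 and 7 as well. Both sets of genes were chosen by HFoleic vs. Ref on these same values. The counts therefore favour the HFoleic mice and are no test of HFepa against HFoleic. In the Ref group, mouse 7 was the highest for 18 and mouse 3 the lowest for 19 of the 35 genes.

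Other genes of these pathways and their entry points numbered 65, of which 60 were tested. In HFoleic vs. Ref 25 of them (41.7%, against 31.9% of all genes) were differentially expressed, 12 higher and 13 lower in HFoleic. Without the 4 arrays with testis transcripts 17 of the 60 passed, against 17.1% of all probes, a count not limited to those 25. Of the 25, Eno1b, H6pd, Hif1a, Ldhd, Mlx, Pgm1, Pmm2, Pygl, Slc16a7 and Slc2a6 then missed the threshold. Among carriers, Slc2a6 (GLUT6), a carrier known from white blood cells, was at 7.15, 7.73 and 8.13 in Ref mice and 8.10, 9.12 and 9.41 in HFoleic mice, a log2 difference of 1.25 (adjusted p = 0.00811) that missed the threshold without the 4 arrays with testis transcripts (adjusted p = 0.0743). Emb, a partner protein of monocarboxylate carriers, went from 8.13, 8.59 and 8.95 to 9.01, 10.04 and 10.46, a log2 difference of 1.38 (adjusted p = 0.00127). Prps1, which makes the ribose precursor of nucleotides, went from 12.87, 13.24 and 13.68 to 13.86, 14.65 and 15.31, a log2 difference of 1.36 (adjusted p = 4.47e-04). Neither Emb nor Prps1 overlapped between these groups, and 5 of 5 proliferation markers rose as well, from a list mean of 7.05 to 8.65 in Ref mice to 8.26 to 9.90 in HFoleic mice. The part of proliferating cells was not tested.

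Gpd1, which turns a glycolytic triose into glycerol phosphate, rose by a log2 difference of 1.06 (adjusted p = 0.00262) from 14.65, 15.59 and 16.26 in Ref mice to 16.17, 16.59 and 17.07 in HFoleic mice. Pck1, which supplies glycerol phosphate from pyruvate, fell by 1.16 on the log2 scale (adjusted p = 0.0015), from 17.44, 17.52 and 17.60 to 15.51, 16.35 and 17.40, without overlap. Of 12 genes listed under glycogen, 2 rose (Pgm1 and Pgm2l1) and 4 fell (Gys1, Gbe1, Pygl and Ugp2). These are 50% of the list, against 31.9% of all genes. By accession, the array name Pgm1 matches Pgm2 in RefSeq and the array name Pgm2 matches Pgm1, so the names of these genes are uncertain. Bpgm, the 2,3-bisphosphoglycerate enzyme of red cells, fell by 0.86 on the log2 scale without overlap (adjusted p = 5.29e-04), beside 4 of 5 erythroid markers that fell as well, with a list mean of 11.40 to 12.16 in Ref mice, 10.65 to 11.42 in HFoleic mice and 11.04 to 11.64 in HFepa mice. The part of red cell RNA was not tested.

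In HFepa vs. Ref, 5 of the 60 genes (8.33%, against 2.45% of all genes) were differentially expressed. Bpgm (-0.59, adjusted p = 0.0311), Ldhd, a mitochondrial lactate dehydrogenase (-0.67, adjusted p = 0.0462), Gbe1, the glycogen branching enzyme (-0.67, adjusted p = 0.0422), and Pdk1, a kinase that shuts pyruvate dehydrogenase (-0.44, adjusted p = 0.0157), were lower, and Pgm2l1, which makes glucose 1,6-bisphosphate, was higher (0.50, adjusted p = 0.0358). Pdk1 was at 11.30 to 11.66 in Ref mice, 10.83 to 11.10 in HFoleic mice and 10.72 to 11.24 in HFepa mice, so that every mouse on the obesogenic diet was below every Ref mouse. In HFepa vs. HFoleic 0 of the 60 passed in limma, with 18 (30%) at an unadjusted p below 0.05. None of the 5 genes of HFepa vs. Ref passed without the 4 arrays with testis transcripts, where 0 of all probes passed in limma.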

How the data were processed

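RNA of VAT from 20 mice was hybridised to 1-colour Agilent arrays, 1 array per mouse. The deposited scanner files hold spot intensity values extracted by the authors with Agilent Feature Extraction 10.10.1.1, with probe positions on mm9. A series table of log2 intensity values, normalised by the authors with limma, served as an alternative. The groups were taken from the sample labels.

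The median spot intensity was taken on the log2 scale without background correction. Control spots and flagged spots were left out, and 39390 probes (25618 gene names) that were well above background on at least 6 arrays were quantile normalised. No spot outside the controls was saturated (0 spots). Group means were fitted over all 20 arrays in limma 3.58.1 (R 4.3.3), with Benjamini–Hochberg adjustment over all probes and a threshold of 0.05. The number of arrays limits the precision. A gene was read by its brightest tested probe. Isoenzyme ratios were tested with a two-sided exact permutation test over mice. The fits were tested on simulated data.

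Members and lists were chosen with earlier results of these data known. Levels per group were given for members that passed in any comparison and for isoenzymes of these. Other pathway genes were named where they passed in HFoleic vs. Ref with a log2 difference of at least 1 in size, or in another comparison. Other tested probes of members were given where their call differed from that of the brightest probe, or their sign with both called. Of the array accessions of the 35 genes, 32 matched RefSeq. Promoters came from RefSeq (GRCm38.p6), with entries for 34 of 35 genes. Alternatives were the processed signal minus its 75th percentile, normexp correction with an offset of 50, median centring, the log2 table of the authors, other probe filters, the slide or the replicate number as a block, only the groups compared, the mean of all probes and each mouse left out. Leaving out the 4 arrays with testis transcripts was chosen after seeing the data.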

Additional observations from a re-analysis of the deposited data

Results flagged for a closer look

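Of the 105 sets of values (35 genes in 3 groups), 11 held 1 mouse far from the others of its group, where chance gives about 1 in 20. In the HFoleic group, mouse 1 stood apart for Tpi1, at 14.83 with the nearest mouse at 15.25, for Eno1, at 14.93 with the nearest at 15.21, and for Eno3, at 10.54 with the nearest at 10.05. HFoleic mouse 5, whose array held testis transcripts, stood apart for Aldoc, at 10.22 with the nearest at 7.88, and for Pgam2, at 7.54 with the nearest at 6.36.

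In the HFepa group, mouse 8 was high for Tkt, at 15.98 with the nearest at 15.21, and for Rpe, at 10.98 with the nearest at 10.58. HFepa mouse 1 was high for Eno2, at 8.93 with the nearest at 8.34. HFepa mouse 3 was low for Pfkm, at 9.96 with the nearest at 10.51, and mouse 5 for Aldoa, at 16.97 with the nearest at 17.26. In the Ref group, mouse 3 was high for Eno2, at 8.55 with the nearest at 8.14.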

How the results depend on the processing

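Of the 35 genes, 13 passed in HFoleic vs. Ref, 2 in HFepa vs. Ref and 0 in HFepa vs. HFoleic (limma). Without the 4 arrays with testis transcripts, chosen after seeing the data, the counts were 5 and 0 in the first 2 comparisons, against 17.1% and 0% of all probes. There were then 0 other pathway genes in HFepa vs. Ref and 0 isoenzyme ratios. For the ratios, the exact test on fewer mice has a larger smallest p, so that count does not show lost differences. In HFepa vs. Ref, 1 of the 35 genes, Eno3, passed on the processed signal, after median centring, without a filter on dim probes and with the slide as a block. With only the groups compared 0 passed. Of all probes, 1.94%, 1.47%, 1.03%, 1.77% and 0.355% passed under these 5 settings. The other pathway genes gave 2, 3, 3, 3 and 0 under the same 5 settings, against 5. With the slide as a block, HFepa vs. HFoleic gave 3 of the 35 genes and 6 other pathway genes, and 3.29% of all probes. With the mean of all probes, Pfkp turned to -0.08 and Slc16a7 to 0.02 in HFoleic vs. Ref. Leaving out 1 mouse gave 9 to 17, 0 to 3 and 0 to 4 of the 35 genes, 21 to 28, 1 to 7 and 0 to 6 other pathway genes and 0 to 16 ratios. Over all probes the shares in the 3 comparisons were then 25% to 33.4%, 0.33% to 6.38% and 0% to 7.27%. The cause of these changes was not tested. Over single genes, isoenzyme ratios and settings, 5548 values kept their side of the threshold, 279 dropped below it, 41 passed it and 2 turned. Direction was not compared for values that passed neither at the main setting nor at the alternative.

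With the replicate number as a block, 6 of the 35 genes passed in HFoleic vs. Ref, against 20% of all probes. In HFepa vs. Ref 0 passed, with 0 other pathway genes, against 0.0635% of all probes. The numbers did not pair the mice, since correlations of same-numbered mice ran from -0.47 to 0.14 in HFoleic vs. Ref, from -0.43 to 0.15 in HFepa vs. Ref and from -0.59 to 0.56 in HFepa vs. HFoleic.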
